A study of Mus musculus with 24 samples.

Results

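Ythdc1 was knocked down in mouse embryos, and the RNA of late 2-cell (L2C) embryos was compared between knockdown (KD) and control (Ctrl) libraries. The comparison holds 6 of the 24 libraries of the series, 3 KD and 3 Ctrl, chosen by their labels and not by any measured value. All embryos are labelled B6D2F1. By the study's methods they came from superovulated B6D2F1 females mated with B6D2F1 males, so they were offspring of hybrids and differed from each other genetically. KD zygotes received mRNA for Cas13d, an RNA-cutting enzyme, together with 3 guide RNAs (crRNAs) against Ythdc1, injected into the cytoplasm before the pronuclei were clearly visible, and Ctrl zygotes received Cas13d mRNA with no crRNA. Every Ctrl embryo therefore carried the enzyme, but none carried a crRNA, and the effect of losing Ythdc1 cannot be told apart from any other effect of the crRNAs. Embryos were cultured to the late 2-cell stage and RNA of whole embryos was amplified and sequenced. The labels give the molecule as polyA RNA and name a stranded SMART-Seq kit, while the methods describe Smart-seq2 primed with oligo-dT, and the reads were counted without strand, so values of antisense genes and of RNAs without a poly(A) tail are less certain. The 18 other libraries of the series, input and m6A immunoprecipitate (IP) of metaphase II oocytes (MII), late 1-cell (L1C) and L2C embryos, were used here only to sort genes into classes.

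YTHDC1 is the nuclear member of the YTH proteins, which bind RNA that carries N6-methyladenosine (m6A). It works with SR proteins such as SRSF3 and SRSF10 in splicing and alternative polyadenylation, hands methylated mRNA to the exporter NXF1, and in embryonic stem cells helps SETDB1 to silence retrotransposons. The 2-cell stage of the mouse is the time of major zygotic genome activation, when stored maternal mRNAs are cleared, a burst of 2-cell genes such as Zscan4 and Zfp352 is switched on and off, and genes for ribosomes, energy and protein turnover start to be transcribed.

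The 3 crRNAs are shown because they define the knockdown. They are written 5′ to 3′ as DNA letters and pair with the Ythdc1 mRNA, and the capitals in the third mark the bases that pair with the later of its exons.
crRNA 1: cctcattctcagtgttgttgccc
crRNA 2: aattcatcatcctgttctggtac
crRNA 3: CTctcagaaccatctggtgtagg
Ythdc1 (ENSMUSG00000035851) lies on the plus strand of GRCm38 at chr5:86804221-86836659. The site of crRNA 1 was in exon 4 at chr5:86817026-86817048 and that of crRNA 2 in exon 2 at chr5:86815667-86815689. The site of crRNA 3 spanned a junction, with its main part in exon 3 at chr5:86816772-86816792 and 2 bases in exon 4 at chr5:86816907-86816908. All 3 sites were in the coding sequence and each was found in 5 of the 9 Ythdc1 transcripts of GENCODE M21. Outside Ythdc1, the 3 sites were matched without a mismatch by 1 gene, Gm43055, a lincRNA model that overlaps the same exons and was too low to be tested.

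Ythdc1 was about halved in the KD libraries. Its level, in CPM (counts scaled to a common library size by TMM), was 523, 541 and 519 in KD 1 to 3 and 1080, 1098 and 994 in Ctrl 1 to 3. The groups did not overlap, and every KD library was below every Ctrl library. The fitted log2 change was -1.004 (SE 0.06, adjusted p = 1.34e-10), from a mean of 1057 ± 55.2 to 527 ± 11.6 (SD, n = 3 each), so transcript remained in each KD library. Actb, the cytoplasmic actin gene often used as a reference, was also lower, at 881, 929 and 901 CPM in KD against 1175, 1232 and 1481 in Ctrl (log2 -0.52, SE 0.07, adjusted p = 5.27e-06).

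The 5 genes that the study followed up as candidate targets were all called lower in KD, as were 37.4% of tested table genes. The study picked them with these libraries in view, so their direction here is a description and not independent evidence. Ybx3, a cold-shock domain protein that binds mRNA, was at 64.8, 63.2 and 64.9 CPM in KD and at 170, 172 and 195 CPM in Ctrl (log2 -1.47). Commd3 was at 35.4, 47.3 and 43.2 CPM against 134, 126 and 130 CPM (log2 -1.63). Rab3b, a small GTPase of vesicle release, was at 11.0, 12.2 and 16.3 CPM against 33.5, 31.5 and 33.0 CPM (log2 -1.29). Camk1d, a calmodulin-dependent kinase, had a log2 change of -1.38, and Tceal8, an X-linked elongation factor-like gene, one of -1.32. In the m6A libraries Camk1d, Ybx3, Tceal8 and Commd3 passed as m6A-tagged at L2C, with a log2 IP over input of 2.73, 2.18, 1.54 and 0.74, and Rab3b, at -0.12, did not. The study counts Rab3b as m6A-tagged, under a rule that accepts a tag at MII, L1C or L2C. It also reports that the 5 mRNAs associated with Ythdc1 and decayed faster after its knockdown when transcription was blocked.

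**Figure D1:**
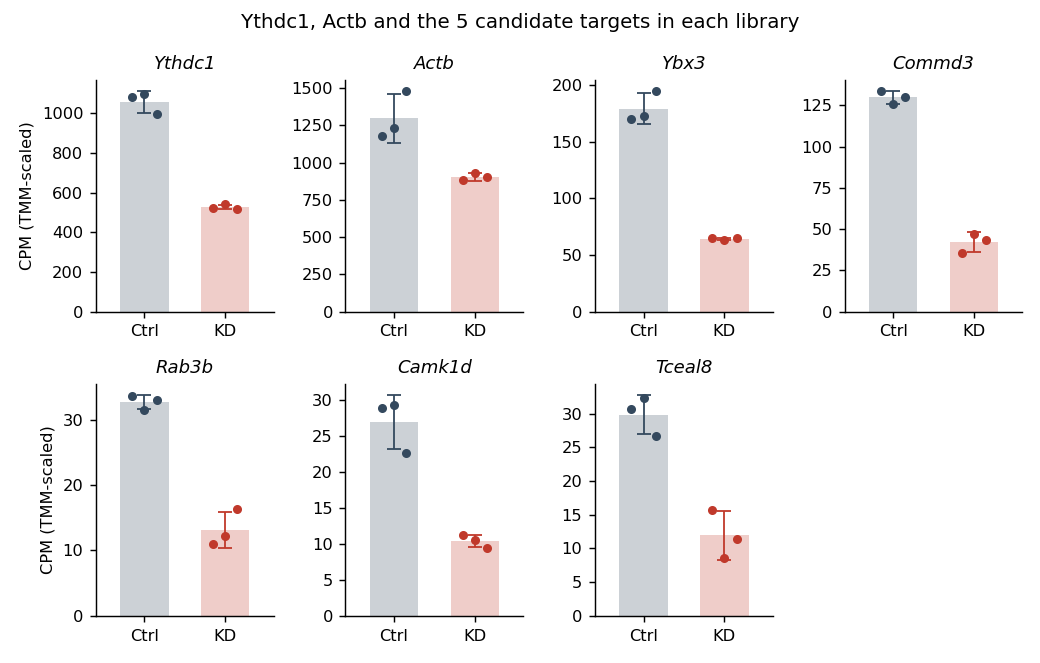
CPM (vertical axes, linear, from 0) of Ythdc1, Actb and the 5 candidate targets in each library, with Ctrl in dark blue and KD in red; points are libraries, bars the mean and whiskers the SD (n = 3 each). In each of the 7 panels the KD points lie below the Ctrl points, with Ythdc1 at 519 to 541 CPM against 994 to 1098 CPM.

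Depth and the extent of the files set what could be compared. The merged count table stops on chromosome 7 and holds 25739 of 55471 annotated genes, those of chromosomes 1, 2, X, 3, 4, 5 and 6 and of chromosome 7 up to position 108651906. Within it all 6 libraries could be compared, with 3276715 to 5463868 counts each. For the remaining 29732 genes KD 3 had no counts and was left out, so that 2 KD libraries were compared with 3 Ctrl libraries, with 8696476 to 14500548 counts over the whole annotation. Pairs of libraries of the same group correlated at 0.987 to 0.991 on log2 CPM over tested table genes and pairs from different groups at 0.882 to 0.888. Same-group pairs still differed by more than sampling noise, with a chi-square per degree of freedom of 2.77 to 6.85, so none was counted as a repeat of another.

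Markers of other cells were mostly low, and several moved with the groups. Over the 5 libraries that cover all genes the summed level of 21 cumulus cell markers was 9.90 to 11.6 CPM in KD and 15.7 to 16.2 CPM in Ctrl, with 5 markers at 0 throughout, among them Fshr, Inhba and Vim, and 3 of the 4 that could be tested called lower. The median of that list, -2.61 over these 4, was 0.10 with DESeq2 and 0.04 without a filter, where more markers entered. That of 10 blood markers was 9.51 and 14.1 CPM against 21.7 to 30.4 CPM, carried by Hba-a1, and Ptprc and Hbb-bs were at 0. Sperm markers summed to 0 and 0.10 CPM in KD and to 2.18 to 4.18 CPM in Ctrl, from Prm2 and Tnp1, and 5 oviduct markers to 126 and 133 CPM against 100 to 107 CPM, nearly all from Epcam, which the embryo also expresses. The oviduct marker Ovgp1 was higher in KD, at 45, 33 and 45 counts against 6, 10 and 8, and Pax8 was lower, at 0 in all KD libraries against 27, 35 and 18 counts. Xist was higher in KD, at 5.98, 5.84 and 4.84 CPM against 1.77, 1.59 and 2.61 CPM (log2 1.499), and the Y-linked genes Kdm5d and Ddx3y were lower, at 1.39 and 1.61 CPM against 3.83, 5.90 and 5.32 CPM for Kdm5d (log2 -1.73). The more highly counted Y-linked genes Eif2s3y (-0.29, adjusted p = 0.0992) and Uty (-0.27, adjusted p = 0.109) were not called. The part of these values in the results that follow was not tested, and the number of embryos per library was not given in the sources used here. In libraries made from whole embryos a lower level of a gene does not tell fewer cells that use it from less RNA per cell.

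Most tested genes were called. At an adjusted p below 0.05, 5269 of 7433 tested table genes were called (70.9%), 2487 higher (33.5%) and 2782 lower (37.4%) in KD. Among genes beyond it, 6226 of 9321 genes were called (66.8%), 2832 higher (30.4%) and 3394 lower (36.4%). Over both comparisons together 31.7% of tested genes were called higher and 36.9% lower, and 14.2% and 23.5% were called with a change of more than 2-fold in each direction. The group counts that follow are given beside these shares, which also varied with level. Among protein-coding genes sorted into quintiles by their Ctrl level per kilobase, 46.6% were called higher and 31.6% lower in the highest quintile, and 23.7% and 40.8% in the second lowest. The shares did not change steadily with level, since the lowest quintile had 37.45% higher, 27.96% lower and a median log2 change of 0.29. The highest quintile had a median log2 change of 0.14, and lists of strongly expressed genes are to be read against that quintile rather than against all genes. The Ctrl libraries both sorted these genes and entered their change.

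**Figure D2:**
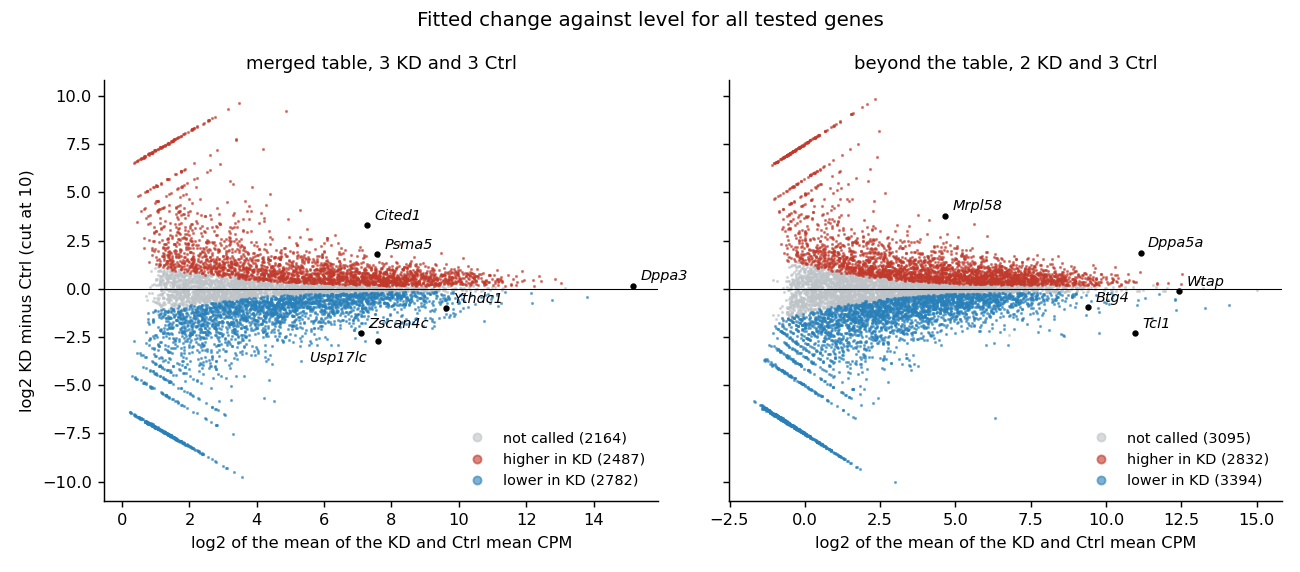
Fitted log2 change, KD minus Ctrl (vertical axis, cut at 10), against the log2 of the mean CPM of both groups (horizontal axis) for the genes of the merged table (left, 7433) and beyond it (right, 9321); each point is a gene, red if called higher in KD, blue if lower and grey if not called. Called genes spread over all levels, and the slanted lines at low level are genes with no or 1 count in 1 of the groups, whose fitted change is not a measured size.

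Cited1, a transcriptional coactivator that binds CBP and p300, was at 266, 309 and 267 CPM in KD and at 27.5, 26.3 and 32.7 CPM in Ctrl, 9.80-fold higher (log2 3.29, SE 0.11, adjusted p = 1.89e-13). Dppa5a, an RNA-binding protein of pluripotent cells, was at 3562 and 3624 CPM against 951, 916 and 1084 CPM (log2 1.87). The rule that picked both genes required groups without overlap. Mixl1, a homeobox factor known from mesendoderm, rose by 2.02. The other table genes with the smallest P values among those risen over 2-fold were Acsl4, a fatty acid-CoA ligase (log2 1.85), Tmem185b (at 64.8, 53.7 and 56.9 CPM in KD and at 0, 1 and 0 counts in Ctrl), Zfp639 (1.65), Ppp6c, the catalytic subunit of protein phosphatase 6 (2.80), Psma5, a proteasome core subunit (1.80), Tsr2, which escorts Rps26 into the ribosome (3.09), Bod1l, a protector of replication forks (1.61), and Acer2, a ceramidase (2.52). Beyond the table the same rule gave Ankmy2 (2.74), Mrpl58, a mitochondrial peptide release factor (3.79), Xpot, the exporter of tRNA (2.82), Rad17, a clamp loader of the DNA damage checkpoint (1.751), Rpl39l, a ribosomal protein paralog (1.62), Igf2r, the imprinted receptor that clears IGF2 (1.56), Gins3, a subunit of the replicative helicase (1.79), and Nkapd1 (2.01).

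Several 2-cell and oocyte genes were among those with the smallest P values on the lower side. Usp17lc, of a family of deubiquitinases that is switched on at the 2-cell stage, was at 56.6, 48.4 and 49.8 CPM in KD and at 328, 309 and 363 CPM in Ctrl, 6.45-fold lower (log2 -2.69, SE 0.09, adjusted p = 3.38e-13). Zfp352, a zinc finger gene of the same burst, was at 214, 185 and 208 CPM against 804, 792 and 756 CPM (log2 -1.95). Pramef25 (-2.69) and Zscan4c (-2.30) belong to the same wave. The rest of the table genes with the smallest P values were Cpa1, which encodes a carboxypeptidase (-1.80), Tpd52 (-1.58), Gstm5, a glutathione transferase (-1.997), Bpgm, which makes 2,3-bisphosphoglycerate (-1.52), Knstrn, a kinetochore-associated spindle protein (-1.46), and Musk, a receptor kinase known from the neuromuscular junction (-2.26). Of the 10 genes beyond the table with the smallest P values, 6 were of 1 cluster on chromosome 12, the Tcl1 oncogene family of oocytes and early embryos. Tcl1 itself, a coactivator of AKT, was at 678 and 660 CPM in KD and at 3221, 3292 and 3494 CPM in Ctrl, 4.99-fold lower (log2 -2.32, adjusted p = 7.17e-12). Tcl1b1 to Tcl1b5 fell with it, by log2 -2.27, -2.23, -2.37, -2.14 and -2.92, although reads shared between these near copies may have been left out of the counts. Bscl2, the lipid droplet protein seipin (-2.80), Ndfip2, an adaptor of NEDD4 ubiquitin ligases (-2.26), and Mphosph6, an exosome-associated protein (-1.54), were also among the 10.

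Genes for ribosomes rose almost as a class. Of the 82 cytosolic ribosomal protein genes tested, 76 were called higher and none lower, with a median log2 change of 0.66 and the middle 50% of members between 0.50 and 0.85. The rise was moderate, since only 11 members passed 2-fold, and the remaining 6 members, such as Rps12 and Rpl13a, were not called. Rps4x was at 892, 836 and 954 CPM in KD and at 366, 365 and 380 CPM in Ctrl (log2 1.27, SE 0.07). Rpl22 and Rpl7 rose by 1.27 and 0.95. Among 83 ribosome biogenesis genes 56 were called higher and 6 lower (median 0.48), with Gnl2, a nucleolar GTPase (1.33), Ddx10, a helicase (1.54), Rrp15 (1.12) and Wdr75 (0.91) risen and Riok1, a kinase of 40S maturation (-0.63), and Rrs1 (-0.44) fallen. Of 46 translation initiation genes 33 were called higher and 5 lower (median 0.42). Those with the smallest P values were the eIF3 subunits Eif3m (1.14), Eif3l (1.65) and Eif3e (1.23) and Eif2ak4, the amino acid sensor GCN2 (1.71). The exception with the largest fall was Eif4e1b, the oocyte form of the cap-binding protein, at 10.6 and 10.7 CPM in KD and at 49.4, 55.3 and 54.3 CPM in Ctrl (log2 -2.31, SE 0.12).

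Mitochondrial and proteasome genes moved the same way. Among 77 mitochondrial ribosomal protein genes 52 were called higher and 8 lower, with a median of 0.72, and 31 rose more than 2-fold. Mrps18c was at 107, 101 and 110 CPM in KD and at 18.1, 26.1 and 17.4 CPM in Ctrl (log2 2.36), and Mrps33 and Mrps17 rose by 1.41 and 1.25. Mrps25 (-1.05) and Mrpl13 (-0.82) fell. Of 77 nuclear-encoded subunits of oxidative phosphorylation 51 were called higher and 7 lower (median 0.57), and risen members came from several complexes: Atp5c1 and Atp5j of ATP synthase (1.26 and 1.37), Ndufa12 of complex I (1.99) and Cox7c of complex IV (1.68). Ndufa4 (-0.48), Cox7b (-0.42) and the electron carrier Cycs (-0.31) fell. The 13 mRNAs of the mitochondrial genome did not share this: 1 was called higher and 3 lower, with a median of -0.09, and mt-Nd2 fell by 0.59. All lie beyond the table, where leaving out KD 1 or KD 2 leaves a single KD library, assumed to vary like the others. These counts depended on single libraries, with 5 higher and 2 lower without KD 2, 0 and 2 without KD 1, 1 and 1 without Ctrl 1, 1 and 2 without Ctrl 2 and 0 and 8 without Ctrl 3, and the median ranged from -0.25 to -0.01. Among 46 proteasome genes 37 were called higher and 2 lower (median 0.75). Psma5 was at 302, 283 and 306 CPM in KD and at 86.2, 82.9 and 86.9 CPM in Ctrl (log2 1.80, SE 0.08), and Psmc2, Psmb7 and the assembly factor Pomp rose by 1.17, 1.05 and 0.98.

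**Figure D3:**
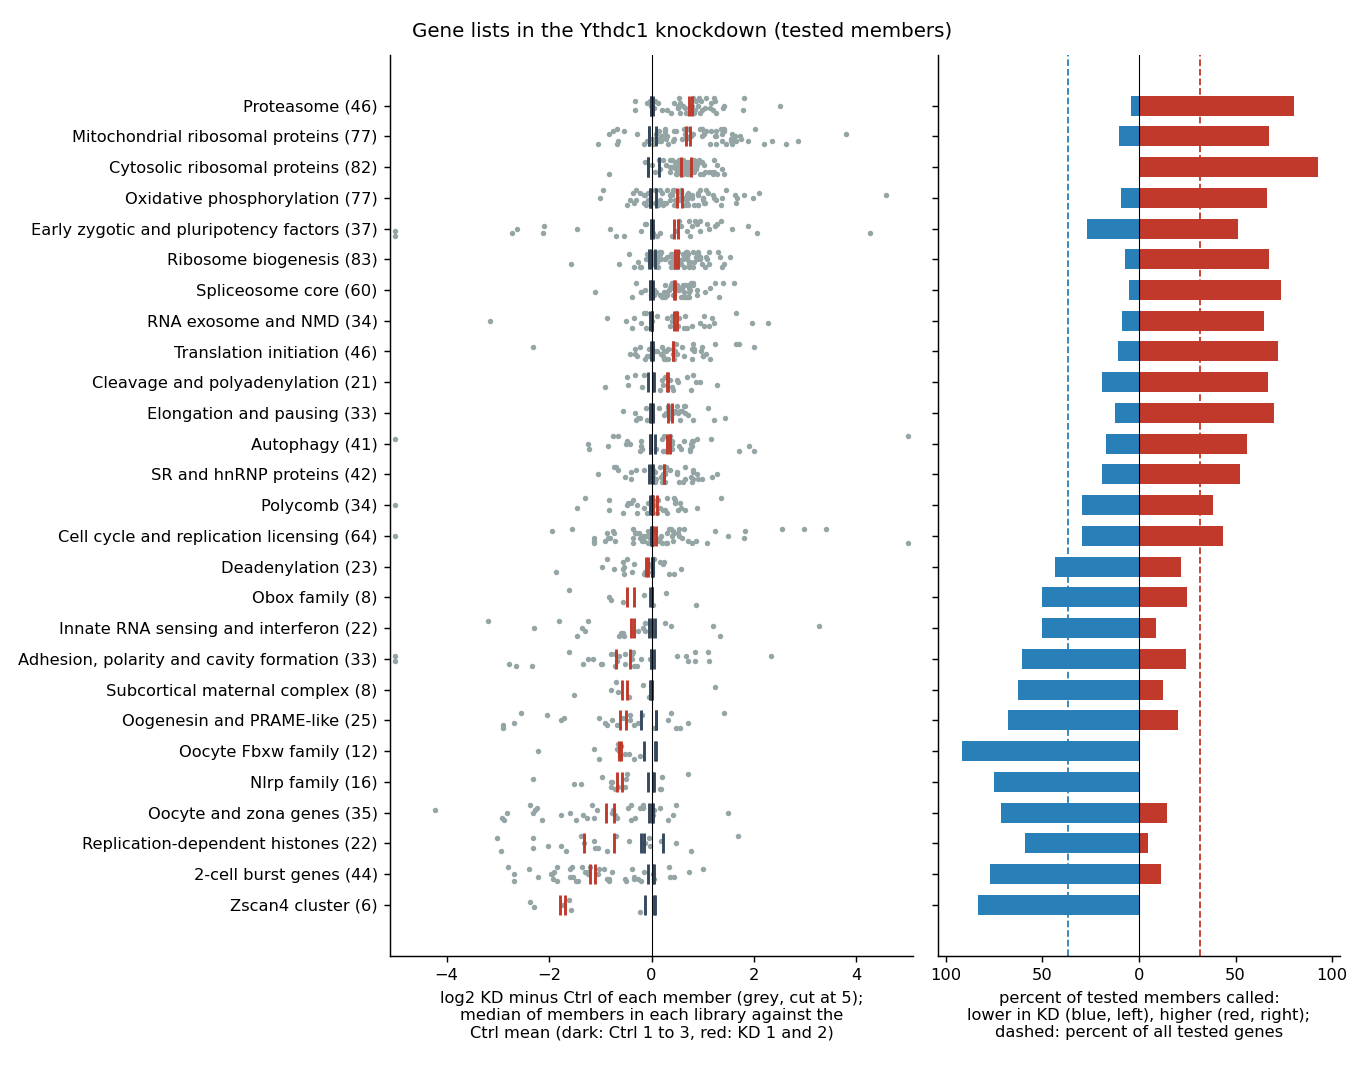
Left, log2 change of each tested member of 27 gene lists (grey points, cut at 5) with the median of the members in each library relative to the Ctrl mean (dark marks, Ctrl 1 to 3; red marks, KD 1 and 2, the KD libraries that cover all genes); right, the percent of tested members called higher (red) or lower (blue) in KD, with the percent over all 16754 tested genes as dashed lines; numbers in brackets are tested members. Lists of the gene expression and energy machinery sit above 0 with red bars beyond the dashed line, and oocyte and 2-cell lists sit below 0 with blue bars beyond it.

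Genes of the m6A machinery moved in both directions. Of 11 writer genes 7 were called higher and 3 lower (median 0.43). Mettl14, the RNA-binding partner of the catalytic subunit, was at 18.4, 21.7 and 17.8 CPM in KD and at 5.32, 5.98 and 10.1 CPM in Ctrl (log2 1.48, SE 0.25), and Mettl3, the catalytic subunit, had a log2 change of 0.51 (adjusted p = 0.0173) that was no longer called without Ctrl 1 or Ctrl 2, or without KD 1, which left 1 KD library. Mettl16 and Mettl5, which methylate other RNAs, rose by 0.91 and 1.20, and Virma and Cbll1 by 0.43 and 0.45. Wtap, the subunit that places the complex in nuclear speckles, was at 5419 and 5104 CPM against 6028, 6110 and 5084 CPM and was not called (log2 -0.13, adjusted p = 0.148). Rbm15 (-0.31) and Pcif1, the cap-adjacent methylase (-0.75), fell. Among 15 erasers and readers 4 were called higher and 6 lower, Ythdc1 included, near the shares over all genes. Ythdf2, the cytoplasmic reader that promotes decay, rose slightly, from 2841, 2715 and 2666 CPM to 3389, 3146 and 3339 CPM (log2 0.26), Ythdf3 and Igf2bp3 fell (-0.42 and -0.43), and Ythdf1 was not called (0.12). Hnrnpa2b1 rose by 0.82. Fto, an m6A eraser, was at 0 in both KD libraries and at 23, 18 and 10 counts in Ctrl, at least 4.52-fold lower by a floor of 3 counts per library.

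Partners of YTHDC1 did not fall with it. Of 12 partner genes 5 were called higher and none lower. Srsf3 was at 108 and 101 CPM in KD and at 47.7, 43.1 and 37.1 CPM in Ctrl (log2 1.28, SE 0.11, adjusted p = 7.23e-08), and Srsf7, Trim28 and Srsf10 rose by 0.79, 0.43 and 0.27. Nxf1 (0.20) and Setdb1 (0.23) were just short of the threshold, with adjusted p values of 0.0507 and 0.0552, and were called in 3 and in 5 of the alternative fits. Across 60 core spliceosome genes 44 were called higher and 3 lower (median 0.47), with Snrpa1 (1.23), Lsm8 (1.05), Slu7 (1.14) and Snrpe (0.76) risen. SR and hnRNP genes were more divided, with 22 of 42 higher and 8 lower: Srsf11 (0.90) and Hnrnpd (0.98) rose, and Tra2a (-0.66), Tra2b (-0.69) and Hnrnpul1 (-0.73) fell. For cleavage and polyadenylation 14 of 21 were higher and 4 lower, among them Cstf3 (0.94), Cstf1 (0.78), the poly(A) polymerase Papolg (1.28) and Cstf2 (-0.91). For mRNA export 9 of 24 were higher and 7 lower, near the shares over all genes, with Ddx39b (1.45) and Thoc2 (0.73) risen and Ddx19a (-0.93) and Thoc5 (-0.71) fallen. Nuclear pore genes counted 16 higher and 5 lower of 27, with Rae1 (1.14) risen and Aaas (-1.95) fallen.

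Of 34 exosome and nonsense-mediated decay genes 22 were called higher and 3 lower (median 0.44), with the exosome subunits Exosc9 (1.66) and Exosc3 (1.12) and the decay factor Upf3b (0.79) risen. Deadenylation genes counted 5 higher and 10 lower of 23 (median -0.15), a share of lower calls near that over all genes. Without KD 1 the counts were 2 and 9 and the median -0.29, and without Ctrl 2 they were 3 and 10 and -0.29. Btg4, the oocyte adaptor that brings CCR4-NOT to maternal mRNA, was at 476 and 441 CPM in KD and at 867, 922 and 906 CPM in Ctrl (log2 -0.97), and Btg2 (-1.86), Pan3 (-0.74) and Cnot4 (-0.55) also fell. Decapping genes counted 2 higher and 3 lower of 15, both shares below those over all genes, with Lsm14b (-1.39) and Dcps (-1.78) among the lower. In the snoRNA host list, whose spliced RNAs are normally removed by nonsense-mediated decay, 1 of 19 was higher, 6 were lower and 12 were not called. Both shares, 5.3% higher and 31.6% lower, were below the 31.7% and 36.9% over all genes. Snhg5 (-1.33), Zfas1 (-0.75) and Snhg1 (-0.60) fell and Snhg14 (0.84) rose.

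Maternal transcripts of the oocyte were mostly lower in KD. Of 35 oocyte and zona genes 25 were called lower and 5 higher (median -0.78), and 17 fell more than 2-fold. Tcl1, Tcl1b1 and Tcl1b3 of the cluster described above are among these members, so the list is not separate from it. Wee2, the oocyte kinase that holds CDK1 inactive, was at 220, 189 and 217 CPM in KD and at 649, 623 and 610 CPM in Ctrl (log2 -1.59, SE 0.07). The oocyte growth factors Gdf9 (-1.26) and Bmp15 (-1.13), singled out after their values were seen, fell as well. The list was not uniform: Zp3, a zona pellucida glycoprotein, rose (0.48), as did the cyclins Ccnb3 (1.501) and Ccnb1 (0.41). Dppa3, which shields the maternal genome from demethylation, was at 38560, 39590 and 39170 CPM in KD and at 33560, 33890 and 37220 CPM in Ctrl (log2 0.16), a call that was lost when libraries were scaled by library size alone. All 12 called genes of the 16 tested Nlrp genes were lower (median -0.69), Nlrp2 by 1.52 and Nlrp9a by 0.96 on the log2 scale. The oocyte Fbxw cluster of chromosome 9 had 11 of 12 genes lower and none higher (median -0.63), with Fbxw26 (-2.22) and Fbxw18 (-1.12) among them. In the subcortical maternal complex Nlrp5 (-0.79) and Tle6 (-0.69) fell while Ooep rose, from 15.8, 15.1 and 17.7 CPM to 34.3 and 41.6 CPM (log2 1.23). Maternal storage factors were mixed, with 11 of 25 higher and 5 lower, Pabpc1 (0.76) among the former and Ybx2 (-0.82) among the latter.

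The 2-cell burst was weaker in the KD libraries. Of the 6 tested Zscan4 genes 5 were called lower and none higher, with a median of -1.67. Zscan4c was at 44.2, 42.8 and 52.1 CPM in KD and at 234, 233 and 221 CPM in Ctrl (log2 -2.30, SE 0.10, adjusted p = 1.23e-12), and Zscan4d at 151, 129 and 162 CPM against 535, 489 and 436 CPM (log2 -1.72). Zscan4f (-1.61), Zscan4b (-1.56) and Zscan4e (-2.38) fell alike, while Zscan4a, at 119, 105.2 and 113 CPM against 149, 122 and 120 CPM, was not called (log2 -0.22, adjusted p = 0.0570). Among 44 other 2-cell burst genes 34 were called lower and 5 higher (median -1.12), and 24 fell more than 2-fold, Usp17lb by 1.35 on the log2 scale. Eif1ad (1.01) and Tdrd12 (0.45) were among the 5 that rose. Of 25 oogenesin and PRAME-like genes 17 were lower and 5 higher (median -0.56), with Gm13103 (-2.90) and BC080695 (-2.91) lower and Pramel6 (0.70) and Pramel4 (0.56) higher. The 8 Obox homeobox genes divided by member: Obox8 (0.87) and Obox6 (0.29) rose, and Obox7 (-1.61), Obox3 (-0.84), Obox2 (-0.78) and Obox1 (-0.57) fell. Members of these families are near copies of each other, so that a read matching several of them equally could have been dropped from the counts, and values of single members are less certain than the direction of a family.

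**Figure D4:**
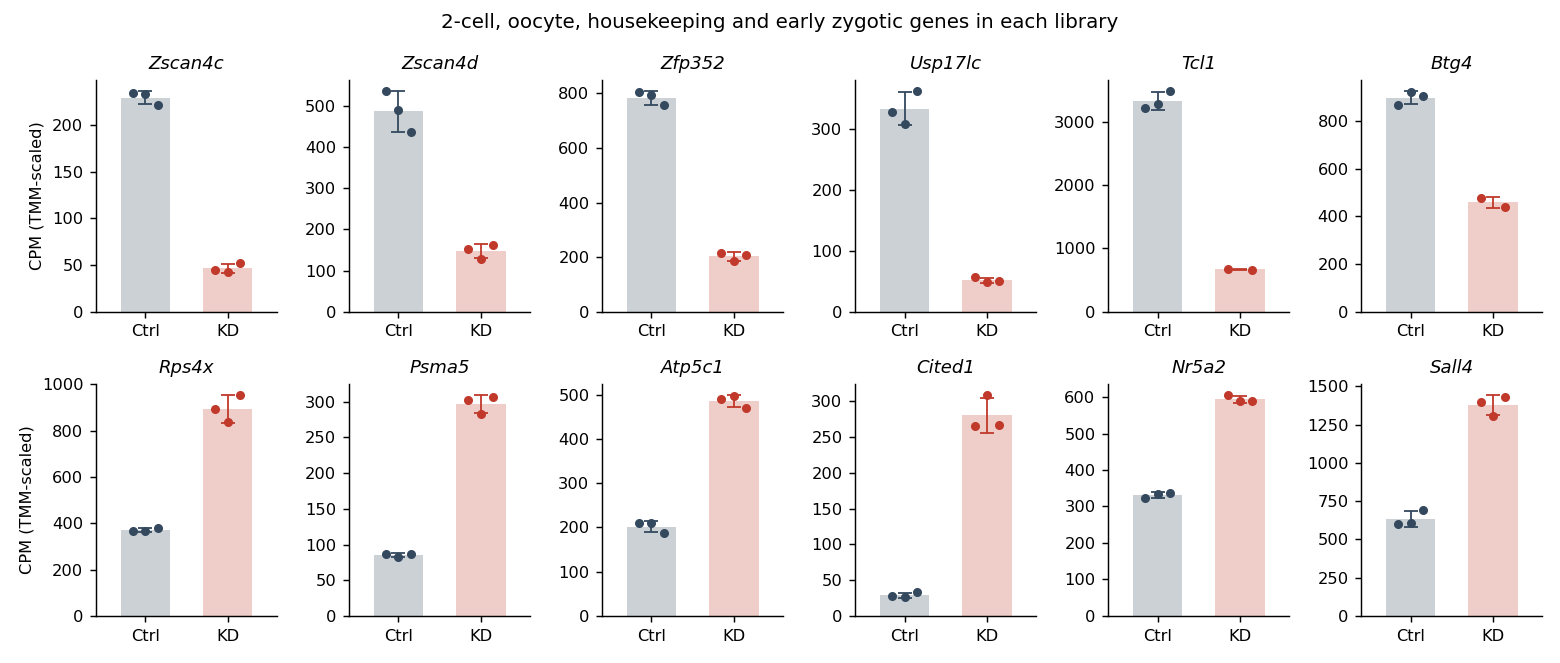
CPM (vertical axes, linear, from 0) in each library of 12 genes from the 2-cell burst (Zscan4c, Zscan4d, Zfp352, Usp17lc), the oocyte (Tcl1, Btg4), the housekeeping lists (Rps4x, Psma5, Atp5c1) and the early embryo (Cited1, Nr5a2, Sall4); points are libraries, bars the mean and whiskers the SD, with 3 Ctrl and 3 KD libraries except Tcl1 and Btg4, which have 2 KD libraries. The KD points lie below Ctrl in the 6 upper panels and above Ctrl in the 6 lower panels, without overlap.

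Transcription factors of the early embryo moved in both directions, with more members higher. Of 37 tested 19 were called higher and 10 lower (median 0.53). Sall4, a zinc finger factor of pluripotent cells, was at 1398, 1306 and 1432 CPM in KD and at 601, 610 and 692 CPM in Ctrl (log2 1.12), and Nr5a2, an orphan nuclear receptor active at genome activation, at 606, 589 and 589 CPM against 322, 335 and 338 CPM (log2 0.84). Tfap2c (1.23) and Gata1 (0.89) also rose. Prdm14, a repressor of differentiation, was at 12.9, 12.0 and 7.16 CPM against 69.4, 65.7 and 71.8 CPM (log2 -2.72), and Mycl was at 0 in all KD libraries, at least 7.66-fold lower by the same floor. Klf6 was at 3 and 0 counts in KD and at 138, 136 and 78 counts in Ctrl. Hippo pathway genes were divided, with 6 of 20 higher and 7 lower, near the shares over all genes. The transcription factor Tead4 (0.95), the adaptor Ajuba (1.06) and the coactivator Wwtr1 (0.53) rose. Yap1 (-0.54), Wwc2 (-0.61) and Tead2 (-2.12) fell, and the kinase Lats2 was at 0 in both KD libraries, at least 11.1-fold lower. Genes of adhesion, polarity and cavity formation were more often lower, 20 of 33 against 8 higher (median -0.52), with the polarity genes Pard6b (-1.24) and Pard3 (-0.97), the channel Aqp9 (-0.99) and the desmosome gene Dsp (-2.64) fallen and Tjp1 (1.12), Prkcz (1.10), F11r (0.85) and Atp1b3 (0.67) risen.

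Chromatin lists differed in direction. H3K9 silencing factors counted 16 higher and 6 lower of 28, with Atrx (1.02), Atf7ip (0.51) and Ehmt1 (0.54) risen and the methylase Suv39h2 (-1.03) and Zfp809, which targets proviruses for silencing (-1.20), fallen. Polycomb genes were balanced, 13 higher and 10 lower of 34, with Rnf2 (0.58) risen and Kdm6b (-1.45) fallen, and their median of 0.07 turned to -0.02 with library size alone. SWI/SNF genes counted 14 higher and 6 lower of 26: Actl6a (1.02) and Dpf2 (1.25) rose, Bcl7a was at 55, 54 and 64 counts in the KD libraries and at 0 in all Ctrl libraries, at least 20.3-fold higher, and Smarca2 (-1.35) fell. Among 27 genes of H3K4 methylation and acetylation 15 were higher and 4 lower, with Kdm5b (0.70), Brd3 (0.91) and Wdr5 (0.51) risen and Kmt2d (-0.67) and Crebbp (-0.45) fallen. DNA methylation factors counted 8 lower and 4 higher of 18, with a share of lower calls near that over all genes and a median of -0.04, and with the dioxygenase Tet3 (-0.90) and Uhrf1, which recruits DNMT1 (-0.92), fallen. Of 22 tested replication-dependent histone genes, whose mRNAs usually lack a poly(A) tail, 13 were lower and 1 higher (median -1.08). None passed 50 CPM in a Ctrl library. Hist1h4i was at 13.9 and 21.1 CPM against 38.2, 45.1 and 46.8 CPM, and the median of the list ranged from -1.48 to -0.09 over the alternative fits. Histone variants and chaperones counted 17 higher and 6 lower of 29, with H3f3a (0.76) risen and the oocyte linker histone H1foo (-0.71) and the nucleoplasmin Npm2 (-0.68) fallen.

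RNA polymerase II and general factors counted 18 higher and 8 lower of 40. The TFIIH subunits Ccnh (1.59), Gtf2h2 (1.58) and Gtf2h5 (1.10) rose, and the polymerase subunits Polr2a (-0.79), Polr2g (-0.79) and Polr2c (-0.59) fell. Elongation and pausing genes counted 23 higher and 4 lower of 33, with Ssrp1 of the FACT complex (1.10) and the NELF subunit Nelfcd (1.42) risen. Cell cycle and licensing genes were balanced around a median of 0.02, with 28 higher and 19 lower of 64: Gins3, Rrm1 (1.81) and Cdk4 (2.97) rose, and Orc5 (-1.13), Mcm4 (-0.92) and Rfc2 (-1.13) fell. Spindle and checkpoint genes counted 22 higher and 11 lower of 43, with Mad2l2 (1.09) and Tpx2 (0.52) risen and Nuf2 (-0.97) fallen. For p53 targets and DNA damage 15 of 33 were higher and 11 lower. Brca1 (0.86) and Parp1 (0.66), which act in DNA repair, were among those that rose, and Btg2 (-1.86), Plk3 (-1.63) and Ccng1 (-1.25) among those that fell. In the cell death list 10 of 22 were higher and 5 lower, Apaf1 (1.14) and Mcl1 (0.53) against Bcl2l10, an oocyte survival gene (-1.49), and Bik (-2.44).

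Metabolic and stress lists had no common direction, but single genes moved far. Among pyruvate, lactate and glucose genes 12 of 40 were higher and 13 lower, near the shares over all genes. Ldhb, the main lactate dehydrogenase gene of the egg, was at 439, 426 and 476 CPM in KD and at 1111, 1083 and 1165 CPM in Ctrl (log2 -1.32), and the glucose transporter Slc2a1 (-2.64) and Ogdh (-1.25) fell, while the pyruvate carrier Mpc2 (0.72) and Idh3b (1.06) rose. Cholesterol synthesis counted 6 higher and 9 lower of 25, a share of lower calls near that over all genes, with Ebp (2.64) against Msmo1 (-1.27) and Insig1 (-0.89). In the integrated stress list 8 of 32 were higher and 14 lower: the serine synthesis genes Phgdh (3.59) and Psat1 (1.03) and the ER chaperone Hspa5 (0.76) rose, and Ddit3 (-1.90), Ppp1r15a (-0.78) and Slc7a11 (-1.06) fell. Asns, asparagine synthetase, was at 41, 38 and 57 counts in KD and at 0 in Ctrl, at least 15.7-fold higher. Heat shock genes counted 17 higher and 8 lower of 32, with Dnaja1 (1.01), Bag1 (1.14) and Hsp90ab1 (0.79) risen and Hsf1 (-0.89) and Hspa1a (-2.11) fallen. Autophagy genes counted 23 higher and 7 lower of 41, with Atg3 (1.91), Atg2a (1.70) and Lamp2 (0.79) risen, and Atg4c, at 0 in KD, at least 9.17-fold lower. Of 22 tested innate sensing and interferon genes 11 were lower and 2 higher (median -0.40, and from -0.59 to -0.22 with single libraries left out): the oocyte genes Oas1h (-2.30) and Oas1c (-1.25), Ifitm3 (-1.80) and the RNA sensor Ddx58 (-1.36) fell, and Oasl1 (3.26) rose from below 2 CPM. Small RNA and piRNA genes were balanced, 10 higher and 11 lower of 30, near the shares over all genes, with Piwil2 (0.82) risen and Mael (-1.66) fallen. Imprinted genes counted 9 higher and 8 lower of 26, near the shares over all genes, with Sfmbt2 (1.88) and Usp29 (0.80) risen and Zdbf2 (-1.95) and Zim1 (-1.79) fallen. Of 9 tested nuclear long noncoding RNAs 2 were higher and 4 lower.

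Genes that rise from L1C to L2C were more often higher in KD, and genes that fall more often lower. Protein-coding genes were sorted by their change in the input libraries of these stages, which share no sample with the knockdown. Of 3501 genes that rose more than 4-fold from L1C to L2C (log2 above 2, adjusted p below 0.05 in edgeR), 49.4% were called higher in KD and 21.7% lower, with a median of 0.30. Of 1712 that fell more than 4-fold, 16.7% were higher and 55.1% lower, with a median of -0.64, and the 7041 others had 31.8% higher, 36.9% lower and a median of -0.07. The median rose in steps with the stage change, from -0.91 in the 185 genes that fell most to 0.32 in the 920 genes with a log2 rise of 3 to 4, and was 0.29 and 0.31 in the bins above that. Across 12254 protein-coding genes Pearson's r between both changes was 0.19 and Spearman's rho 0.28, given as a description because genes are not replicates. The 2-cell burst was an exception to this order: its genes rose by a median log2 of 2.98 from L1C to L2C and were lower in KD. Genes that had risen already from MII to L1C were less often higher than the remaining risen genes, at 40.6% of 1038 against 53.1% of 2463.

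Enrichment in the m6A IP at L2C had a weaker relation to the knockdown. Of 3263 mRNAs that passed as m6A-tagged, 34.3% were called higher and 38.2% lower, with a median of -0.06, and of 9066 untagged mRNAs 34.8% and 34.0%, with a median of 0.01. Tagged mRNAs made up 26.4% of the mRNAs that fell more than 2-fold, 20.7% of those that rose more than 2-fold and 26.5% of all that were tested and sorted. A difference appeared at stronger enrichment. The median change was 0.17 in the 273 mRNAs with a log2 IP over input below -2, -0.03 at 0 to 1, -0.21 in the 899 at 1 to 2 and -0.48 in the 77 above 2, where 58.4% were lower. Among risen genes the median was 0.32 at an enrichment of 0 to 1 and -0.00 above 1, among fallen genes -0.60 and -0.84, and among the others -0.06 and -0.20, so the median was lower above 1 in each stage class. Pearson's r across 12460 mRNAs was -0.07.

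**Figure D5:**
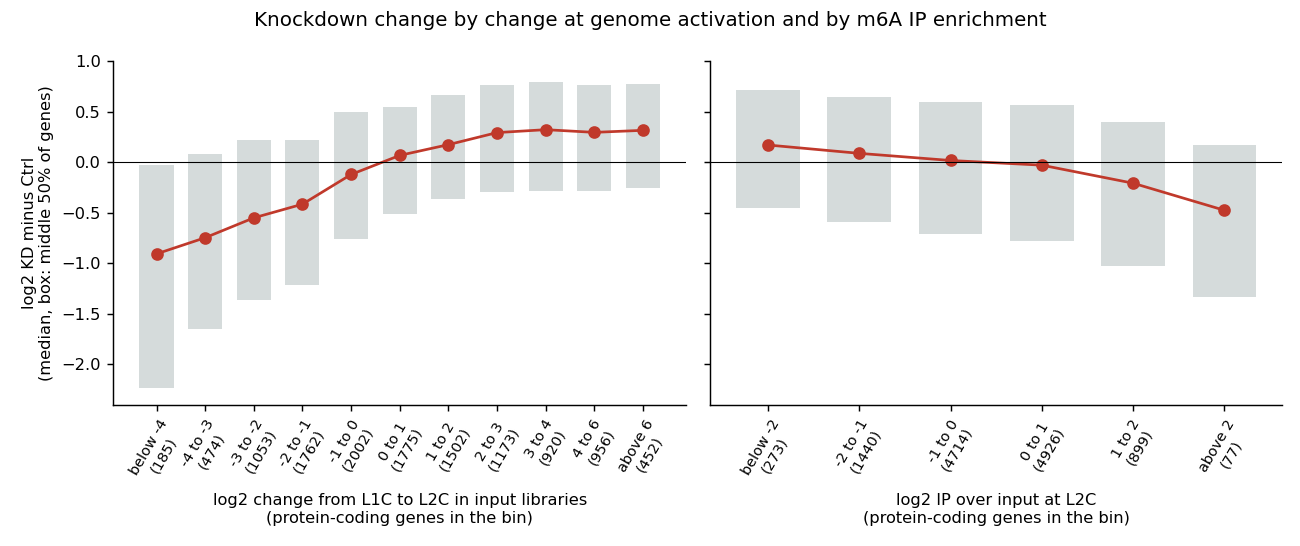
Median log2 change, KD minus Ctrl (red points; grey boxes, the middle 50% of genes), of protein-coding genes binned by their log2 change from L1C to L2C in input libraries (left) and by log2 IP over input at L2C (right); numbers in brackets are genes per bin. The median climbs from -0.91 to 0.32 with the stage change and descends from 0.17 to -0.48 with IP enrichment, while the boxes of neighbouring bins overlap widely.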

How the data were processed

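Read trimming (Trimmomatic), alignment (HISAT2) and exon counting (featureCounts v2.0.1) were done by the authors on an Ensembl GRCm38 annotation, per the file headers without a strand or multi-mapping option. The deposited count table and per-library counts are raw. They agreed in every shared value, and KD replicate 3 stops inside the table's last region. The m6A libraries were deposited by the authors as kallisto estimated counts, rounded here, and TPM, used in 1 alternative.

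edgeR 4.0.16 (R 4.3.3) gave the quasi-likelihood test after filterByExpr and TMM, with Benjamini-Hochberg adjustment over all genes tested and a call at an adjusted p below 0.05. The study's methods give a P below 0.05 and a log2 limit of 1 with DESeq2, and state elsewhere that P values were adjusted for multiple comparisons. That rule was tried as an alternative with an unadjusted P and with an adjusted p, in edgeR and, for the unadjusted P, in DESeq2 1.42.0. The fit beyond the table ran on the whole annotation with 5 libraries. On simulated counts with 200 changed genes the table fit found 183, with 16 false calls, and the other found 170, with 9. The number of false calls where most genes are called, as in these libraries, was not tested. Gene symbols and biotypes came from GENCODE M21, which matched 55230 of 55471 IDs. m6A-tagged mRNAs had log2 IP over input above 0, P below 0.05 and more than 1 count in each L2C input. Named genes were Ythdc1, Actb, the candidate targets, the 10 mRNA genes of smallest P per comparison and direction (called, over 2-fold, groups apart, a mean of at least 10 counts), and up to 4 called members per list and direction. Some that this rule gives are not reported here. The members and the 59 lists were chosen with earlier results of these data known, so list counts carry no test. Replicate numbers did not pair the libraries. Labels do not say whether libraries came from separate injections, so P values measure only the spread between these libraries, which may be technical. Tables of pooled kallisto values were not used here.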

Additional observations from a re-analysis of the deposited data

How the results depend on the processing

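With an adjusted p and a log2 change over 1, the merged table gave 1088 higher and 1669 lower genes and the genes beyond it 1299 and 2262. An unadjusted P below 0.05 with the same log2 limit, one reading of the study's rule, gave 1092 higher and 1672 lower in the table with edgeR, and 1717 and 2450 with DESeq2, the study's tool. Beyond it the rule gave 1318 and 2290 with edgeR and 1747 and 2668 with DESeq2. Leaving out 1 library moved the table counts between 2381 and 2731 higher and between 2629 and 2959 lower, and those beyond between 2411 and 2875 higher and between 2926 and 3331 lower, where leaving out a KD library leaves 1, assumed to vary like the Ctrl libraries. A replicate block gave 2436 higher and 2734 lower table genes, and 2781 and 3231 beyond, although same-numbered KD and Ctrl libraries did not deviate together (correlations of 0.09, -0.10 and -0.07). Scaling by library size alone lowered the median of all table genes from -0.06 to -0.19. The numbers of called mRNAs of the mitochondrial genome ran from 0 to 5 higher and from 1 to 8 lower over the alternatives, and those of Ythdc1 partners from 4 to 9 higher, with none lower. Replication-dependent histone genes had 1 to 7 higher, with 7 where no filter was used. List medians kept 1 sign in every alternative for 52 of 59 lists. In 26 of these the median moved by over 1.5 times in some alternative, 23 of them with a median under 0.4 in size, and the other 3 were replication-dependent histones and blood and sperm markers. The other 7 lists took both signs. Polycomb genes turned to -0.0214 with library size alone, and oviduct markers to -1.497 with DESeq2 and -1.98 without a filter. The medians ranged from -0.07 to 0.08 for cell cycle genes, from -2.88 to 0.10 for cumulus markers, from -0.13 to 0.06 for decapping genes, from -0.08 to 0.13 for imprinted genes and from -0.13 to 0.10 for small RNA and piRNA genes.

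The median of tagged mRNAs moved to -0.22 when a log2 IP over input above 1 was required. With a log2 limit of 1 the medians of risen and fallen genes were 0.27 and -0.51, and with a TPM ratio over 5 that of fallen genes was -0.57. The cause of these shifts was not tested.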

Other observations

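Several transcript classes other than mRNA had lower medians. Of 985 tested lincRNA genes 18.98% were called higher and 51.6% lower in KD, with a median log2 change of -0.77, against 34.3% and 35.5% of 12750 protein-coding genes, with a median of -0.02. Antisense genes (533, median -0.51) and unprocessed pseudogenes (182, median -0.77) had lower medians too. These classes were not matched to protein-coding genes by level. Among protein-coding genes the median was -0.31 in the second lowest quintile of Ctrl level and 0.29 in the lowest. Processed pseudogenes, which are copies of spliced mRNAs, had a median of 0.21 over 1151 genes, with 30.8% called higher and 27.8% lower, and with 200 higher and 259 lower by more than 2-fold. The counting did not use strand, so reads of an antisense gene and its partner cannot be told apart.

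Among gene families formed by the letters of the symbol, with at least 10 tested protein-coding members and ordered after their values were seen, the lowest medians were those of the Abca lipid transporters (12 tested, 8 lower and 2 higher, median -1.46), the keratins (13 tested, 7 lower and 6 higher, -1.29) and the tetraspanins (11 tested, 7 lower and 2 higher, -1.13). Olfactory receptor genes, transcribed here at low level, were lower in 27 and higher in 11 of 55 (median -0.97). The highest medians were those of Sox factors (6 of 11 higher and 3 lower, each by more than 2-fold, median 1.01), Utp genes of the small subunit processome (10 of 10 higher, 0.80), Mrps (19 of 29 higher and 2 lower, 0.79) and the tRNA methylases Trmt (10 of 15 higher and 2 lower, 0.72).

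Some genes were present in every library of 1 group and absent from the other. Of the table's genes, 32 had at least 20 counts in each KD library and none in any Ctrl library, and 69 genes the reverse. Beyond it there were 33 and 98. Plbd1 had 90, 78 and 119 counts in KD and 0 in Ctrl. Ldb2 had 90, 69 and 41 counts in Ctrl and 0 in KD. Both were singled out after their values were seen.

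With up to 4 mismatches the crRNA sites were matched in 22 genes other than Ythdc1, of which 10 were tested: 4 were lower (Pla2g6, 2310003L06Rik, Dsel and Meox2), 2 were higher and 4 were not called. Over all tested genes 36.9% were called lower.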
